A study of Mus musculus with 28 samples.

Results

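The 4 major urinary protein (Mup) genes Mup3, Mup15, Mup20 and Mup21 were followed through 28 RNA-seq libraries of mice that overexpress the human cytidine deaminase A3B. They are 4 of 49 Mup genes and pseudogenes, and 4 of 35928 gene symbols, in the kallisto files of set 2, and 4 of 24845 gene rows in the TPM table of set 1. The members were chosen on their liver values in both sets, so the liver comparison of A3B with control mice is given below as a description, with no p-value for these genes.

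In the A3B mice a human A3B-turboGFP cDNA sits at the ColA1 locus behind a tetracycline operator, and a CAGs-rtTA3 transgene, active in most adult tissues, switches it on under doxycycline. Set 2 held livers of 6 A3B and 2 control mice and pancreata of 6 A3B and 2 control mice, all labelled 10 days on food with 625 ppm doxycycline. Set 1 held livers of 3 A3B and 3 control mice, and lungs of 3 and 3. Its A3B livers were labelled 14 days (mice 23 and 28) or 10 days (mouse 70), its A3B lungs 10 days, and its controls 15 days on the same food, although the study's own mouse list puts several of these controls on no doxycycline. A figure legend of the study also describes the pair of control animals used for variant calling in liver and pancreas as without doxycycline, which differs from the labels of the set 2 controls. The study's methods, like the labels, have control littermates on doxycycline. Most controls carry A3B without the driver, control lung 87 carries the CAGs driver alone, and control liver 11 is labelled with both transgenes. The pancreas labels disagree with the liver labels of the same mice: control pancreata 45 and 168 are labelled with both transgenes, and A3B pancreata 44 and 137 with A3B alone. Groups here follow the sample titles. The labels give no sex, age or strain, and each library is 1 tissue of 1 mouse.

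The transgene itself was a row of the set 1 table, hAPOBEC3B, at 1705, 705 and 1585 TPM (a transcript abundance corrected for length and scaled to the same total in every library) in A3B livers 23, 28 and 70 and at 0.144, 0.143 and 0.0928 TPM in control livers 11, 91 and 92. In the lung it ran from 90.6 to 281 TPM with A3B and from 0.435 to 0.526 TPM in controls. The set 1 titles therefore fit the transgene in all 12 libraries, control liver 11 included. No transgene transcript was used in set 2. Livers of set 2 held 65161064 to 118976013 estimated counts and pancreata 74836907 to 95604352, and the depth of set 1 is unknown because its table gives TPM only.

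Mup genes encode small secreted lipocalins that hepatocytes release into blood and that pass into urine, where they bind and slowly release volatile pheromones. In the mouse their transcription in liver depends on the pulsatile pattern of growth hormone through its receptor and STAT5, with further input from androgen, thyroid hormone and glucocorticoid, and for several genes it is higher in males than in females. Mup20, also called darcin, is the male pheromone that draws females to a scent mark, and Mup3, Mup20 and Mup21 belong to the more divergent genes at the edge of the cluster, whereas Mup15 is one of the near-identical central copies.

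All 4 genes lie on the minus strand of chromosome 4 (GRCm38) within a 2.19-megabase cluster that holds every Mup gene of the files but 1 processed pseudogene. Mup15 (ENSMUSG00000096674.1) spans chr4:61435790-61439743, Mup20 (ENSMUSG00000078672.2) chr4:62050234-62054158, Mup3 (ENSMUSG00000066154.11) chr4:62083476-62087342 and Mup21 (ENSMUSG00000066153.2) chr4:62147932-62150863. The coding sequences of Mup3 and Mup21 were 95.4% identical, and those of Mup3 and Mup15 83.3%. Mup15 differed from Mup2 at 2 of 540 coding bases. This matters for the measurement, because kallisto assigns reads by shared stretches of 31 bases. Of the 31-base words in the transcripts, 69.9% were found in no other gene for Mup3 (766 of 1096), 66.2% for Mup21 (428 of 647) and 35.5% for Mup20 (319 of 898), but 0 of 895 for Mup15. No single word is thus specific to Mup15, and 793 of its words were shared with Mup2. Its value may depend heavily on how reads shared with its neighbours were allocated. Whether whole read pairs could be told apart was not checked.

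The exon 3 window in which the coding sequences differ most shows how far reads can tell the members apart. Capitals mark the 20 of 60 aligned positions at which the 4 genes are not all the same, and the windows lie, in the order printed, at chr4:62085973-62086032, chr4:62149368-62149427, chr4:62052650-62052709 and chr4:61438237-61438296 (GRCm38, minus strand, 5′ to 3′).
Mup3: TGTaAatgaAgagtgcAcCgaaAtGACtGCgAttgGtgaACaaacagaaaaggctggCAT
Mup21: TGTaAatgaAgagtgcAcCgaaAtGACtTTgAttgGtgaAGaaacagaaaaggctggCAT
Mup20: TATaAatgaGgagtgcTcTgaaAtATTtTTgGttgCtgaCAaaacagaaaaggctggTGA
Mup15: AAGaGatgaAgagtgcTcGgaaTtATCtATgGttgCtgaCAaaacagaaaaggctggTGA

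Because members moved together in several livers, the 100 bases before the RefSeq start (GRCm38.p6, minus strand) are shown for the 3 members with an entry in the promoter table used, Mup15 (chr4:61439705-61439804), Mup3 (chr4:62087318-62087417) and Mup21 (chr4:62150842-62150941). Capitals mark TATATAA, which was searched on both strands together with the STAT-type letters TTCNNNGAA. The search covered only the part of each 300-base promoter window that lies before the start.
Mup15: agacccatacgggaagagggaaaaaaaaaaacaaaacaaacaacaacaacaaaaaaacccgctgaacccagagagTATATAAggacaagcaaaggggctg
Mup3: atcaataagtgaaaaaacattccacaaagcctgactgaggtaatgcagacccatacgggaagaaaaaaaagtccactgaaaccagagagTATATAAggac
Mup21: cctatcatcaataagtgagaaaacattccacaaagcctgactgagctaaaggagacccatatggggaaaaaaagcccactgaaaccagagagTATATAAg
TATATAA stood in 11 of 14 Mup promoters of the table and in 3.04% of all 32851 promoters. TTCNNNGAA stood in 0 of the 14 and in 7.02% of all, which says only that these letters are not in the stretches searched.

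In the livers of set 2, Mup3 was far lower in every A3B mouse than in both controls. It stood at 13.8, 47.9, 2.50, 253, 255 and 129 TPM in A3B livers 44, 137, 49, 125, 48 and 153, and at 3969 and 13120 TPM in control livers 45 and 168. The lowest control was 15.6-fold above the highest A3B liver. Within the A3B group Mup3 itself spread 102-fold, so the mean of 117 ± 115 TPM (SD, n = 6) hides a wide range. By TPM, Mup3 ranked 10 among all genes in control 168 and 28 in control 45, whereas its rank in A3B livers ran from 375 to 10835.

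Mup15 separated the groups as well. Its values were 0.0516, 0.441, 0, 5.44, 3.85 and 5.0 TPM in A3B livers 44, 137, 49, 125, 48 and 153, against 116 and 2428 TPM in control livers 45 and 168. The lower control was 21.3-fold above the highest A3B liver, but the 2 controls also lay 20.9-fold apart. Over the 8 livers Mup15 and Mup3 correlated at r = 0.99 (Pearson, log2 CPM), a description that includes whatever reads kallisto moves among like copies.

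Mup20 and Mup21 overlapped between the groups. Mup20 stood at 88.1, 581, 30.9, 384, 36.3 and 854 TPM in A3B livers 44, 137, 49, 125, 48 and 153, and at 165 and 5790 TPM in control livers 45 and 168. Mup21 stood in the same livers at 1.48, 99.6, 0.134, 94.3, 7.15 and 93.7 TPM with A3B and at 13.4 and 272 TPM in controls. For both genes A3B livers 125, 137 and 153 were above control liver 45 and below control liver 168, and A3B livers 44, 48 and 49 were below both.

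The livers fell into 2 kinds by Ddx3y. Ddx3y, a Y-linked RNA helicase, was at 12.1 to 48.0 TPM in A3B livers 125, 137 and 153 and control liver 168, and at 0.0177 to 0.0854 TPM in A3B livers 44, 48 and 49 and control liver 45. Ddx3y and Eif2s3y together passed 1 TPM in 4 of the 8 livers, called Ddx3y-positive below, and all 9 mice with 2 tissues sequenced had the same status in both. This definition was chosen after the values were seen, and the other Y-linked genes were less clear. Kdm5d, a Y-linked histone demethylase, was at 2.61 to 5.24 TPM in the positive livers but also at 3.48 TPM in A3B liver 48 and 1.31 TPM in A3B liver 44, against 0.162 and 0.20 TPM in A3B liver 49 and control liver 45. Uty, another Y-linked demethylase gene, was at 2.66 to 3.17 TPM and at 0.0205 to 0.372 TPM. Asking for each of the 4 genes to pass 1 TPM gave the same status in all 16 libraries of set 2, whereas their sum moved A3B livers 44 and 48 to the positive side. Sex is not in the labels.

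Within the same Ddx3y status every A3B liver was below its control for each of the 4 genes. Among Ddx3y-negative livers, control liver 45 exceeded the highest of 3 A3B livers 15.6-fold for Mup3, 30.1-fold for Mup15, 1.87-fold for Mup20 and 1.88-fold for Mup21. Among Ddx3y-positive livers, control liver 168 exceeded the highest of 3 A3B livers 51.9-fold for Mup3, 446-fold for Mup15, 6.78-fold for Mup20 and 2.73-fold for Mup21. Each stratum rests on 1 control. Alb, the albumin of hepatocytes, was lower in these A3B livers too, and relative to it the order changed for Mup20 among Ddx3y-negative livers but not among Ddx3y-positive ones. Per 1000 TPM of Alb, Mup20 was at 2.03, 1.6 and 1.54 TPM in Ddx3y-negative A3B livers 44, 49 and 48 and at 1.53 TPM in control liver 45, and Mup21 in A3B liver 48 was at 0.302 TPM against 0.124 TPM. In Ddx3y-positive A3B livers 137, 125 and 153 Mup20 was at 19.1, 13.0 and 19.4 TPM per 1000 TPM of Alb against 106 TPM in control liver 168, and Mup21 at 3.28, 3.18 and 2.12 TPM against 4.98 TPM. Mup3 stayed under its control on this scale, at 0.129 to 10.8 TPM against 36.8 TPM. Among the 17376 genes tested, 5.42% had every A3B liver under every control and 7.12% had every A3B liver under the control of the same status. The rule used these values, so nothing is read from that background.

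**Figure D1:**
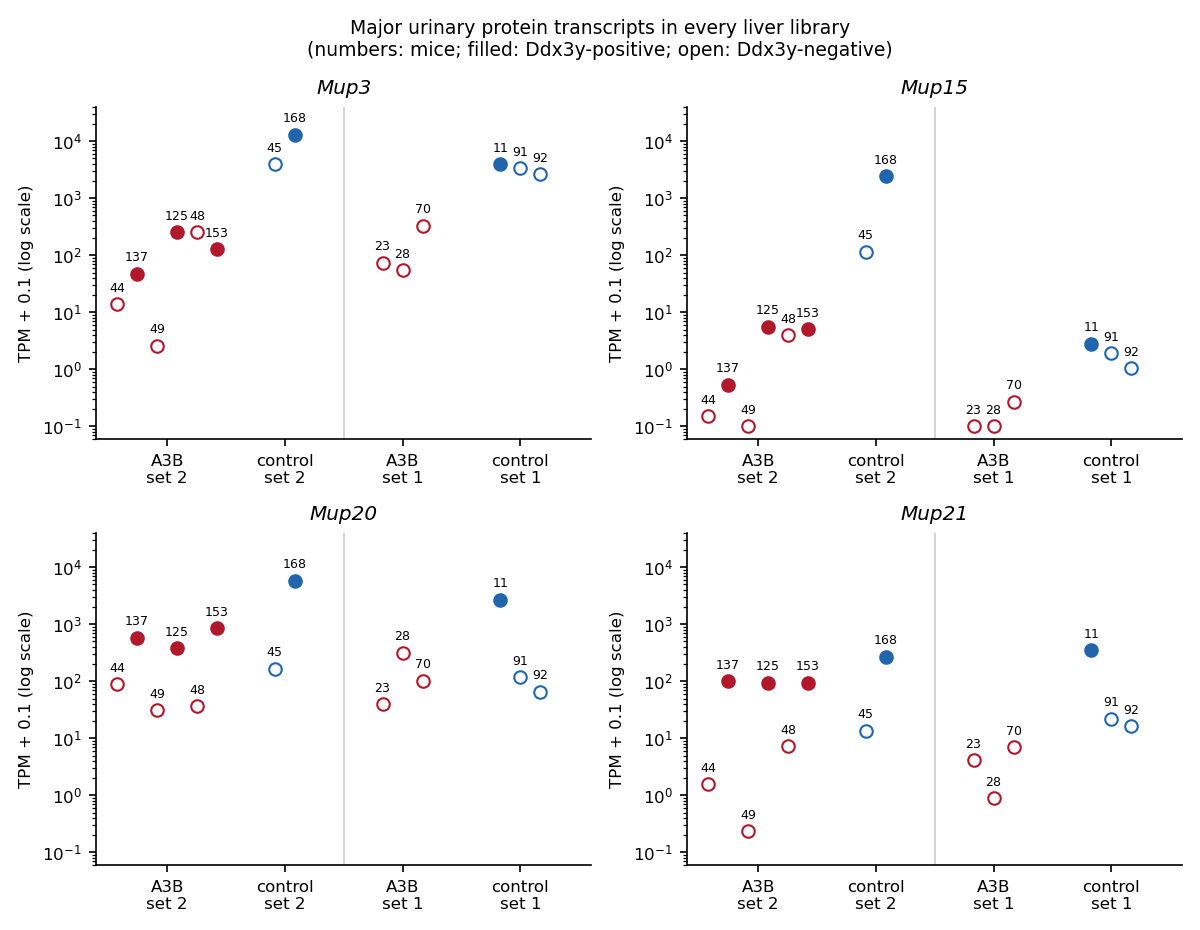
TPM + 0.1 on a log axis for each gene in every liver library of both sets, 1 point per mouse with its number, red for A3B and blue for control, filled where Ddx3y-positive. Mup3 separates the groups in both sets, with the lowest set 2 control at 3969 TPM and the highest A3B liver at 255, whereas Mup20 overlaps in both.

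In edgeR's fit over all genes the log2 fold change of A3B over control was -6.46 (SE 1.34) for Mup3, -9.37 (SE 1.86) for Mup15, -3.65 (SE 1.28) for Mup20 and -1.97 (SE 1.71) for Mup21, with 6 A3B and 2 control livers. With Ddx3y status as a covariate, an alternative to that fit, they were -6.27 (SE 1.38), -8.63 (SE 1.79), -3.0 (SE 0.48) and -2.07 (SE 0.89), and with the status by the sum of 4 Y-linked genes -8.61, -10.72, -3.81 and -4.02 for Mup3, Mup15, Mup20 and Mup21. Leaving out control liver 168 turned the values of Mup20 to 0.71 and of Mup21 to 1.63 and left Mup3 at -5.23 and Mup15 at -5.74. The direction of Mup20 and Mup21 over all livers therefore rested on 1 control, while that of Mup3 and Mup15 did not. In this fit 2.41% of genes were called lower and 1.25% higher with A3B at an adjusted p under 0.05, and the all-gene median was 0.21. With counts scaled by their totals the all-gene median was 0.67 and the split turned, from 218 higher and 418 lower to 878 higher and 241 lower, while all 4 members kept negative values.

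**Figure D2:**
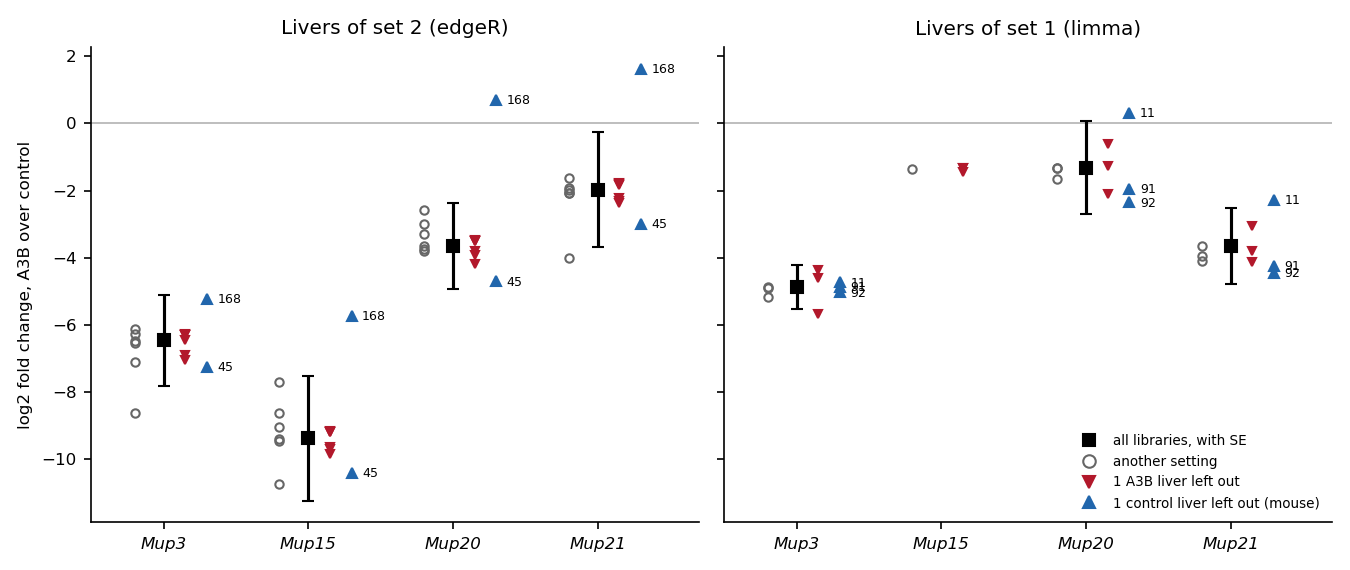
log2 fold change of A3B over control for each gene in the livers of set 2 (left) and set 1 (right), black squares with SE for all libraries, open circles for other settings, triangles for fits without 1 library. Without control liver 168 in set 2 the points of Mup20 and Mup21 cross 0, as does that of Mup20 in set 1 without control liver 11. Mup15 has no square in set 1, where it was under the filter on low values.

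The family as a whole took 13.9% of all TPM in control 168 and 2.31% in control 45. In A3B livers its share ran from 0.00364% (mouse 49) to 0.401% (mouse 125), and every A3B liver was under both controls. Which gene led the family differed too. Mup22, a central copy, led in control liver 45 with 54.6% of family TPM, Mup7, another central copy, led in control liver 168 with 33.2%, and Mup20 led in A3B livers 44 and 49 with 55.0% and 84.9%. In the other 4 A3B livers Mup22 led. In the 2 livers where Mup20 led it was still at 88.1 and 30.9 TPM, under the 165 TPM of control liver 45, where it made up 0.714% of the family. The ratio of Mup3 to Mup20 was 24.0 and 2.27 in control livers 45 and 168 and 7.01 in A3B liver 48, but between 0.0808 and 0.658 in the other 5 A3B livers.

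**Figure D3:**
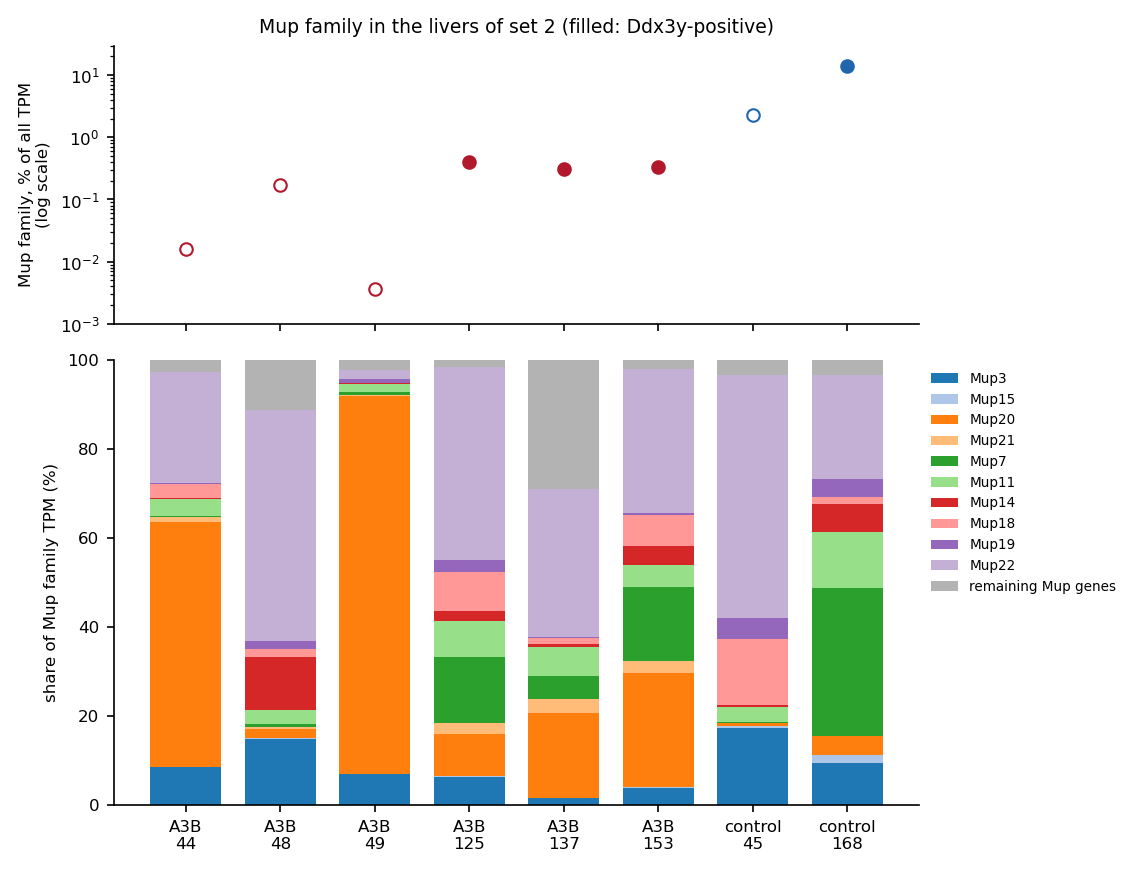
Upper panel, the summed TPM of all Mup genes as a percentage of all TPM on a log axis in each liver of set 2. Lower panel, the share of that sum taken by each of 10 Mup genes and by the remaining 39 together. Mup20 fills 84.9% of the bar of A3B liver 49 and 0.714% of that of control liver 45.

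Mup3 has 3 annotated protein-coding transcripts of 7 exons each. The main 2 share the gene nearly evenly in controls, the first-listed transcript taking 46.7% and 46.0% of Mup3 TPM in control livers 45 and 168 and the next 52.0% and 53.0%. In A3B livers the first took 47.9% to 66.0%, except in mouse 49, where it took 15.0% of a Mup3 level of only 2.50 TPM. The third took at most 1.28% in any liver of set 2. Both main transcripts were under every control in all 6 A3B livers.

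Levels by Ddx3y status are given as a description of these 8 livers, with no p-value for the members, since both the members and the status were chosen with these values known. In the edgeR fit with both terms, a contrast added after the data were seen, Ddx3y-positive livers had 4.09 (SE 0.51) more log2 units of Mup20 than the 4 negative ones, 4.78 (SE 0.98) more of Mup21, 1.95 (SE 1.58) more of Mup15 and 0.78 (SE 1.25) more of Mup3. Leaving out 1 liver at a time gave 3.7 to 4.40 for Mup20. The estimates of Mup3 and Mup15 rested on A3B liver 48. Without it Mup3 was at 3.83, Mup15 at 5.8 and Mup21 at 6.42, while without any other liver Mup3 stayed at 0.32 to 1.16. With the status by the sum of 4 Y-linked genes, also added later, Mup20 was at 4.28 (SE 1.31) and Mup3 at 4.26 (SE 1.85), and edgeR called 0 genes in all, 1640 having an unadjusted p under 0.05. With the status by Ddx3y and Eif2s3y and 1 A3B liver left out, the calls ran from 4 (without mouse 125) to 19 (without mouse 49). With all 8 livers 0.0576% of genes were called, 10 in all, among them Ddx3y and Eif2s3y, which define the status. Outside the Mup family and the Y-linked genes, those on the lists below were Cyp2d9, a male-biased P450 (3.93, adjusted p = 0.0477), and, lower in Ddx3y-positive livers, Sult2a1, a female-biased sulfotransferase (-11.58, adjusted p = 0.00232), and the female-biased P450s Cyp3a16 (-7.94, adjusted p = 0.00551) and Cyp3a41a (-11.36, adjusted p = 0.0379).

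The other Mup genes had negative values with A3B too. Of 45 in the files 22 passed the count filter, and all 22 had a negative log2 fold change in the livers of set 2. The median was -5.18 (from -7.71 to -2.09) against 0.21 for all genes. A gene could pass the filter through the 2 controls alone, so the shared sign can in part follow from the filter. Without a count filter 43 were fitted, with a median of -4.06 against 0.34 for all genes. DESeq2, which fitted 43 of them, called 16 lower and 0 higher. It called 4.33% of all genes fitted lower, a share that counts genes whether or not they had an adjusted p. By edgeR 19 of the 22 had an unadjusted p under 0.05, as had 22.9% of all genes tested, and 4 were called lower and 0 higher at an adjusted p under 0.05. The 4 were Mup12 (-7.71, SE 1.70), Mup5 (-5.04, SE 1.06) and the pseudogenes Mup-ps12 (-7.53, SE 0.87) and Mup-ps14 (-5.24, SE 0.99), of which Mup12 alone reached 10 TPM in a group and the rest stand at under 6 TPM in every liver. Mup-ps12 was called in all 8 fits that leave out 1 liver, Mup-ps14 in 5, Mup5 in 2 and Mup12 in 1. Both pseudogenes stood at 0.143 TPM or less in every A3B liver and entered the test through the controls. Nothing is therefore read from the stability of their calls. The most abundant genes did not pass the threshold. Mup22 stood at 12624 and 32350 TPM in control livers 45 and 168 and at 0.737 to 1733 TPM in A3B livers (-5.14, SE 1.55, adjusted p = 0.0942). Mup7 stood at 42.4 and 46001 TPM in the controls and at 0.191 to 596 TPM with A3B (-7.16, SE 2.53, adjusted p = 0.143). Every A3B liver was under every control for 15 of the 22, and under the control of the same Ddx3y status for 19. These genes share reads with Mup15 and Mup20 and are no independent evidence for them.

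**Figure D4:**
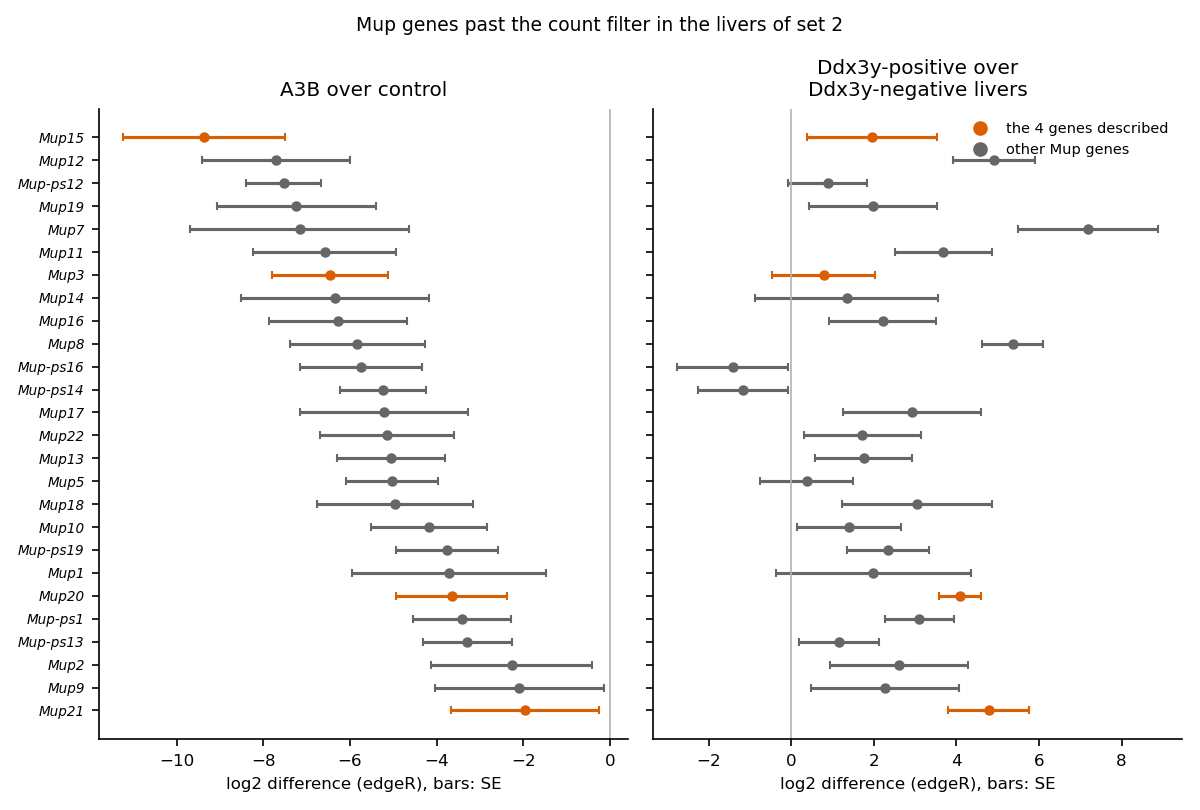
edgeR log2 difference with SE for the 26 Mup genes past the count filter in the livers of set 2, for A3B over control (left) and for Ddx3y-positive over Ddx3y-negative livers (right). All 26 points on the left are below 0, from -9.37 for Mup15 to -1.97 for Mup21, and on the right Mup20 lies at 4.09 and Mup3 at 0.78.

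The genes that carry the hormonal signal to Mup promoters were examined next, as lists. Of 14 genes of the growth hormone and STAT5 pathway 1 was called lower and 0 higher in the livers of set 2 (median -0.69, and -0.03 without control liver 168). The 1 was Ghr, the growth hormone receptor, at 31.5 to 96.1 TPM (median 49.4) in A3B livers and 340 and 270 TPM in control livers 45 and 168 (log2 fold change -3.04, SE 0.43, adjusted p = 0.00871). Every A3B liver was under both controls for Ghr whatever its Ddx3y status, and the Ddx3y contrast of Ghr was -0.02 (SE 0.43). In set 1 limma called Ghr lower as well (-2.24, SE 0.49, adjusted p = 0.0414). The edgeR call was lost without either control (highest adjusted p = 0.0523) and that of limma in all but 1 of 6 fits without 1 liver (highest adjusted p = 0.178). Ghr separated the groups in all livers of set 2, as Mup3 did.

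Of 7 hormone receptors and Mup regulators 0 were called by edgeR at an adjusted p under 0.05, 0 had an unadjusted p under 0.05 and DESeq2 called 0. Cebpa, a liver transcription factor, was at 38.1 to 170 TPM with A3B and 158 and 196 TPM in the controls (-1.02, SE 0.47, adjusted p = 0.231).

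Of 14 male-biased liver genes 4 were called lower and 0 higher (median -3.23). Slco1a1, a sinusoidal anion transporter, fell from 175 and 162 TPM in controls to 0.889 to 4.86 TPM (-6.77, SE 0.57, adjusted p = 0.00297), and Ugt2b1, a glucuronosyltransferase, from 152 and 322 TPM to 4.83 to 36.5 TPM (-4.41, SE 0.62, adjusted p = 0.00853). C6, a complement component, fell by 3.77 (SE 0.83, adjusted p = 0.0419), and Ugt2b38, another glucuronosyltransferase, had 0.0229 to 0.147 TPM with A3B against 1.49 and 9.77 TPM (-6.76, SE 0.75, adjusted p = 0.00444). Slco1a1 and Ugt2b38 were called in all 8 fits that leave out 1 liver, Ugt2b1 in all but that without control liver 168 and C6 in 3. In set 1 limma called 4 of 13 lower and 0 higher (median -3.10), where it called 1.86% of all genes lower. All 4 calls were lost without control liver 91, and also without control liver 92. Of 14 female-biased liver genes 0 were called by edgeR at an adjusted p under 0.05 (median -2.55), and DESeq2 called 1. By edgeR 4 had an unadjusted p under 0.05, as had 22.9% of all genes, and 12 of the 14 values were negative. This sign rested on control liver 45, without which the median was 5.66. A1bg, a secreted plasma protein, stood at 877 TPM in control liver 45, 0.436 TPM in control liver 168 and 0 to 2.38 TPM with A3B (-9.76, SE 2.36, adjusted p = 0.0589). The sign was negative for 13 of the 14 male-biased genes, whose median was -1.27 without control liver 168.

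Lipocalins outside the Mup family gave both directions. Of 11, Lcn2, an iron-siderophore binding protein of the acute phase, was called higher, at 490 to 2768 TPM with A3B against 12.8 and 5.21 TPM in control livers 45 and 168 (7.21, SE 0.88, adjusted p = 0.00527). Ptgds, a prostaglandin synthase, was called lower at 0.501 to 4.17 TPM against 19.1 and 7.54 TPM (-3.08, SE 0.71, adjusted p = 0.0454). Without control liver 168 Lcn2 was not called (adjusted p = 0.0734), and Ptgds was called in 3 of the 8 fits without 1 liver. The remaining 9 were not called by edgeR, by which 7 of the 11 had an unadjusted p under 0.05, as had 22.9% of all genes. DESeq2 called 5 of the 11, 3 higher and 2 lower, where it called 5.27% of all genes fitted higher.

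In a bulk tissue fewer cells of a type and less RNA per cell cannot be told apart. Of 12 hepatocyte markers 1 was called lower and 0 higher (median -0.56). It was Trf, transferrin (-1.94, SE 0.46, adjusted p = 0.0487), called in 2 of the 8 fits without 1 liver. Their summed level was 60041 to 130281 TPM in A3B livers and 138759 and 197072 TPM in control livers 168 and 45, none of the 12 markers being at 0. Alb, albumin, stood at 19353 to 44124 TPM in A3B livers and at 107806 and 54669 TPM in control livers 45 and 168, so every A3B liver was under both controls, and the group means differed 2.56-fold. Control liver 45 exceeded the highest Ddx3y-negative A3B liver 2.49-fold for Alb, against 1.87-fold for Mup20 and 1.88-fold for Mup21. Control liver 168 exceeded the highest Ddx3y-positive A3B liver 1.24-fold for Alb, against 6.78-fold for Mup20 and 2.73-fold for Mup21. The summed markers of Kupffer cells and macrophages ran from 26.8 to 771 TPM with A3B around control values of 257 and 277, those of T and B cells from 1.06 to 6.71 around 2.28 and 4.50, those of cholangiocytes from 2.03 to 24.1 beside 1.75 and 4.18, those of stellate cells and fibroblasts from 18.8 to 202 around 64.3 and 123, and those of endothelium from 8.41 to 67.5 around 51.1 and 64.1. Of the 25 genes of these 5 lists 0 were called by edgeR at an adjusted p under 0.05, and DESeq2 called 1. By edgeR 3 had an unadjusted p under 0.05, as had 22.9% of all genes. A3B liver 49, with the lowest Mup3, had the lowest hepatocyte sum and the highest macrophage sum, and A3B liver 48, with the highest Mup3 among A3B livers, the lowest macrophage and endothelial sums. Their part in the Mup levels was not tested. Cela1, an elastase also found outside the pancreas, was the 1 acinar marker called (-2.68, SE 0.51, adjusted p = 0.0262), a call lost without A3B liver 137. Of the 8 acinar markers 3 had negative values (median 0.57). Their summed level was 240 and 479 TPM in A3B livers 44 and 153, 6.77 to 19.2 TPM in the other 4 and 113 and 79.3 TPM in control livers 45 and 168, and of 4 lung epithelium markers 0 were called by edgeR or DESeq2 and 0 had an unadjusted p under 0.05.

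The genes outside the family with the profile most like each member were found by Pearson r of log2 CPM over the 8 livers, among 6829 tested genes whose mean over these livers reached 10 TPM. For Mup3 they were Tprkb, Hc, Aldh9a1, Acadsb and Ak3 (r = 0.979 to 0.986), of which Hc, complement component C5, had r = 0.865 and Ak3 r = -0.411 over the 6 livers of set 1. For Mup15 they were Tprkb, C8a, Idh3b, Apoe and Zdhhc6 (r = 0.968 to 0.980), with r = 0.876 for C8a, another complement gene, in set 1. For Mup20 they included Pithd1, Elovl3, Cyp2d9 and Gm16286 (r = 0.926 to 0.948). Elovl3, a fatty acid elongase, and Cyp2d9 are on the male-biased list, with r = 0.774 and 0.621 in set 1. For Mup21 they were Ogfod2, Serpina1a, Fbxo9, Cyhr1 and Oxa1l (r = 0.940 to 0.976), of which Serpina1a, an alpha-1-antitrypsin, had r = 0.679 and Ogfod2, the closest, r = 0.023 in set 1. Over set 1 r ran from -0.411 to 0.876 for the genes named here. All libraries of a set enter every r, so these values share depth and group. Mup20 correlated with Mup21 at r = 0.88 and with Mup3 at r = 0.68 over the 8 livers.

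In the livers of set 1, processed apart from set 2, Mup3 again separated the groups. It was at 74.3, 54.9 and 331 TPM in A3B livers 23, 28 and 70 and at 3990, 3346 and 2628 TPM in control livers 11, 91 and 92. The lowest control was 7.93-fold above the highest A3B liver, and the difference in log2(TPM + 1) was -4.87 (SE 0.65) by limma. Control liver 11, which was Ddx3y-positive, did not differ from the other controls in Mup3 by more than 1.52-fold.

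Mup20 overlapped here as in set 2. It stood at 39.7, 316 and 103 TPM in A3B livers 23, 28 and 70, and at 2672, 117 and 65.6 TPM in control livers 11, 91 and 92. The difference of -1.32 (SE 1.39) became 0.31 (SE 0.88) without control liver 11, the 1 Ddx3y-positive liver of set 1. Both sets thus had their highest liver Mup20 in a Ddx3y-positive control, as they had for Mup3, Mup15 and Mup21.

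Mup21 did not overlap, at 4.06, 0.782 and 6.83 TPM with A3B and 353, 21.8 and 16.3 TPM in control livers 11, 91 and 92 (difference -3.65, SE 1.14, and -2.27 without control liver 11). Mup15 was close to 0 in this table, at 0, 0 and 0.171 TPM against 2.73, 1.81 and 0.937 TPM, and fell under the filter of a mean of 1 TPM. Among genes tested in set 1, 10.3% had every A3B liver under every control and 1.86% were called lower. Of 8 other Mup genes tested 7 were called lower and 0 higher (median -3.27, all-gene median 0.39), and in all 8 every A3B liver was under every control. These 8 could pass the filter of a mean of 1 TPM through the controls alone. Their shared sign and separation can therefore in part follow from the filter, and how large that part is was not tested. Over all genes limma called 913 in this set, but 1 in the fit without control liver 91, 9 without control liver 92 and 55 without A3B liver 23. The Mup family summed to 0.314% to 0.734% of TPM in control livers and 0.0120% to 0.0447% in A3B livers, and the 4 members made up at least 86.3% of that sum in every liver. In set 2 they made up 18.4% and 15.6% of the family sum in control livers 45 and 168. Set 2 has 45 other Mup genes, of which the set 1 table has rows for only 17. The family sums and shares of the 2 sets therefore cover different genes. Levels are not compared between the sets, which were processed apart.

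Liver and pancreas of the A3B mice of set 2 are compared as a description with no test, since the A3B liver values were used in choosing the members. The edgeR log2 difference of liver over pancreas was 6.61 (SE 1.25) for Mup20, 7.91 (SE 1.39) for Mup21, 2.77 (SE 1.09) for Mup15 and 3.05 (SE 1.28) for Mup3. In the fit with the mouse as a replicate block, which keeps the 5 A3B mice with both tissues, Mup20 was at 6.64 (SE 1.34), Mup21 at 6.53 (SE 2.15), Mup15 at 0.90 (SE 1.79) and Mup3 at 2.15 (SE 2.35).

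Mouse by mouse, Mup3 was higher in pancreas than in liver in 2 A3B mice. In mouse 44 it was at 49.7 TPM in pancreas and 13.8 TPM in liver, and in mouse 49 at 21.5 and 2.50 TPM. In mice 125, 137 and 153 the pancreas was at 1.49, 0.334 and 36.0 TPM and the liver 169-, 143- and 3.59-fold higher. In control mice 45 and 168 the liver exceeded the pancreas 530- and 25532-fold. The gap was smaller in every A3B mouse than in both controls, and whether it differed between the groups was not tested. Mup21 was higher in liver in all of these mice but 49. Mup20 was higher in liver in all 7 mice, by 6.19-fold (mouse 49) to 14043-fold (control 168). The 2 mice in which pancreas Mup3 exceeded liver Mup3 were Ddx3y-negative.

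**Figure D5:**
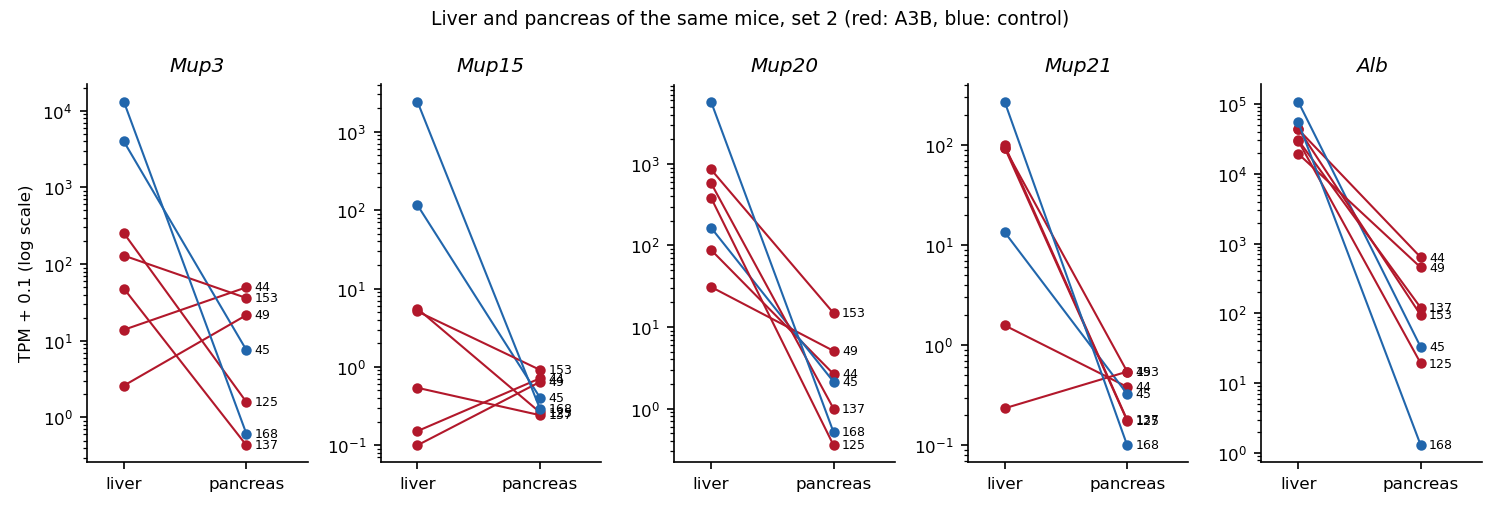
TPM + 0.1 on log axes in liver and pancreas for the 4 genes and for Alb, each line 1 mouse of set 2, red for A3B and blue for control, with mouse numbers at the pancreas end. The Mup3 lines of mice 44 and 49 rise from 13.8 and 2.50 TPM in liver to 49.7 and 21.5 TPM in pancreas, while all Alb lines fall.

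Within the pancreas 0 of 4 members were called between A3B and control mice by edgeR, 0 had an unadjusted p under 0.05 and DESeq2 called 0. Mup3 was at 49.7, 0.527, 21.5, 1.49, 0.334 and 36.0 TPM in A3B pancreata 44, 53, 49, 125, 137 and 153, and at 7.48 and 0.514 TPM in control pancreata 45 and 168. The edgeR log2 fold change was -0.62 (SE 1.89, adjusted p = 0.828) for Mup3, -1.64 (SE 0.76, adjusted p = 0.123) for Mup15, -1.03 (SE 1.41, adjusted p = 0.607) for Mup20 and -1.68 (SE 1.22, adjusted p = 0.314) for Mup21. With counts scaled by their totals in place of TMM, an edgeR scaling that allows for composition, all 4 were positive, at 2.08, 0.82, 1.64 and 1.02, so no direction is given. By contrast 31.9% of genes were called in this tissue, where 7 of 8 acinar markers were called lower.

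Albumin, made by hepatocytes, was read beside Mup3 in the pancreas. Alb was at 634, 10.4, 454, 19.1, 120 and 94.0 TPM in A3B pancreata 44, 53, 49, 125, 137 and 153 and at 32.7 and 1.19 TPM in control pancreata 45 and 168. A3B pancreata 44 and 49 had the most Alb, and their Mup3 was the highest and the third highest of the group. The ratio of Mup3 to Alb, as TPM per 1000 TPM, was 78.5 and 47.5 there and 229 and 430 in the controls. In A3B pancreas 153, with the second highest Mup3, it was 384, inside the range of the controls, and in A3B pancreata 53, 125 and 137 it was 50.5, 78.1 and 2.77. The ratio was higher in pancreas than in liver in all 7 mice with both tissues. In the livers it was 0.318, 0.129, 8.52, 1.58 and 2.93 in A3B mice 44, 49, 125, 137 and 153 and 36.8 and 240 in control mice 45 and 168. The part of liver RNA in these pancreas values was not tested.

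In the lung 0 of the 2 members past the filter were called by limma, and 0 had an unadjusted p under 0.05. Mup3 was at 0.711, 2.68 and 12.3 TPM in A3B lungs 69, 70 and 74 and at 0.302, 155 and 13.5 TPM in control lungs 87, 88 and 91 (limma difference -1.71, SE 1.92, adjusted p = 0.521). Control lung 88, with the highest Mup3, also had the highest Alb, 245 TPM, against 0.331 to 216 TPM in the other 5 lungs. Without it the Mup3 difference was 0.01. Mup20 was at 0.322, 2.39 and 7.41 TPM with A3B and at 0.0646, 1.78 and 0.535 TPM in controls (1.02, SE 0.75, adjusted p = 0.329). Mup15 and Mup21 stood under 1 TPM in every lung. In the lung 36.8% of genes were called.

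Ordered by mean level in set 2, Mup3 ran from 8544 ± 6471 TPM (SD, n = 2) in control liver to 117 ± 115 TPM (SD, n = 6) in A3B liver, 18.3 ± 21.1 TPM (SD, n = 6) in A3B pancreas and 4.0 ± 4.93 TPM (SD, n = 2) in control pancreas. Only the first step leaves no overlap between libraries. For Mup20 the order was the same, 2978 ± 3978, 329 ± 339, 3.99 ± 5.55 and 1.22 ± 1.14 TPM, with overlap within liver and within pancreas but none between the tissues. The step at which libraries did not overlap lay between control and A3B liver for Mup3 and between liver and pancreas for Mup20.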

How the data were processed

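RNA was sequenced from TruSeq stranded libraries. For set 2 the authors ran kallisto on the mouse reference (mm10, GRCm38) and deposited, for each transcript, an estimated count and TPM. For set 1 the authors deposited one table of TPM per gene. Its headers name sorted, deduplicated alignments, and the methods name STAR on mm10, and GenomicAlignments and GenomicFeatures for the read counts behind TPM, without saying which samples each served. Estimated counts and TPM were summed per gene by GENCODE M21 (116728 of 119414 transcripts matched), and counts were rounded. Set 2 was tested with edgeR 4.0.16 (quasi-likelihood, robust, filterByExpr, TMM) and set 1 with limma 3.58.1 (trend, robust) on log2(TPM + 1) for genes averaging 1 TPM or more, in R 4.3.3, with Benjamini-Hochberg adjustment over all genes tested and a threshold of 0.05. Folds in set 1 are on the log2(TPM + 1) scale, which understates low genes. The SE of edgeR is the absolute log2 fold change over the root of the F statistic, and that of limma is its moderated standard error. A library is Ddx3y-positive where Ddx3y and Eif2s3y together exceed 1 TPM. The planned covariate was whether 4 Y-linked genes (with Kdm5d and Uty) are expressed. The 2-gene form was chosen after their values were seen. 2 gene names that occur more than once in the set 1 table were left out.

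The members and lists were chosen with earlier results of these data known. Named from each list were up to 4 genes that reach a group mean of 10 TPM, with the largest change among those called, or otherwise the 2 with the smallest p, and for each member the 5 most similar genes. Ugt2b38, Mup5, Mup7, Mup8, Mup22, the called pseudogenes and the sex-biased genes of the Ddx3y contrast were named after their values were seen. Some genes that the rule names are not reported here. DESeq2 1.42.0, other scalings and filters, and fits without each library are alternatives. Scripts were tested on simulated data. P-values measure the spread between mice, of which set 2 has 2 controls. Liver and pancreas of 5 A3B mice pair by mouse number. The test planned for members between these tissues is given as a difference with no p-value.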

Additional observations from a re-analysis of the deposited data

Results flagged for a closer look

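Among 10 groups of values tested for an outlying library (the 4 genes and their family sum in the A3B livers and A3B pancreata of set 2), 1 stood apart. Mup20 in A3B pancreas 153 was at 14.7 TPM, where the other 5 A3B pancreata lay between 0.255 and 4.99 TPM, and the gap to its neighbour made up 0.673 of the whole range. Chance flags about 1 in 20 such groups.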

How the results depend on the processing

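Apart from fits without 1 library, 24 tested folds were recomputed under other settings, of which 17 kept their direction and side of the threshold. All 53 folds of members that have no test kept their sign, and 32 of 51 counts of called genes stayed within 1.5 times the count given. In the livers of set 2 Mup3 and Mup15 kept negative values under every setting tried. Leaving out 1 liver of set 2 gave -7.24 to -5.23 for Mup3, -10.41 to -5.74 for Mup15, -4.70 to 0.71 for Mup20 and -3.0 to 1.63 for Mup21, the last value of each without control 168, and in set 1 -2.35 to 0.31 for Mup20, the last without control 11. The Ddx3y contrast ran from 3.7 to 4.40 for Mup20, 0.32 to 3.83 for Mup3, 1.20 to 5.8 for Mup15 and 4.37 to 6.42 for Mup21, the highest of these 3 without A3B liver 48. With the status by the sum of 4 Y-linked genes that of Mup20 was 4.28, of Mup3 4.26, of Mup15 5.64 and of Mup21 6.49. Where 1 control is left, it is assumed to vary like the other group. The causes of these changes were not tested.

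The number of genes called in the livers of set 2 was 636, but 2351 with DESeq2 (1290 higher, 1061 lower), 1119 with counts scaled by their totals, 742 with limma on log2(TPM + 1) (549 higher, 193 lower), and 73 (without control 168, 74 without control 45) to 1596 (without A3B liver 49) with 1 liver left out. In set 1 it was 913 (699 higher, 214 lower), 675 after centring (346 higher, 329 lower), 54 with no filter on low values, and 1 (without control 91) to 1562 (without control 11). Of other Mup genes 16 were called with DESeq2 and 8 with Ddx3y status as a covariate. Of female-biased genes 1 was called with DESeq2, 1 with totals, 1 with limma and 3 with the covariate. DESeq2 called 3 genes of the growth hormone pathway, 4 hepatocyte markers and 5 lipocalins. Hepatocyte markers gave 0 calls with totals, 0 without a count filter, 0 with limma and 2 with the covariate, and lipocalins 1 with the covariate. With the sum of 4 Y-linked genes as the covariate 2 genes of the growth hormone pathway and 0 hepatocyte markers were called. With 1 liver left out the calls ran from 1 to 11 for other Mup genes, 2 to 5 for male-biased, 0 to 2 for female-biased and 0 to 3 for growth hormone pathway genes, 0 to 3 for hepatocyte markers and 0 to 4 for lipocalins.

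In the pancreas no member was called under any setting, with adjusted p from 0.0635 to 0.980. Scaling by totals, under which 13483 genes were called higher and 210 lower in place of 3252 and 2848, gave 2.08 for Mup3, 0.82 for Mup15, 1.64 for Mup20 and 1.02 for Mup21. Limma gave 1.11 for Mup3 and 0.66 for Mup20, and the covariate 0.08 for Mup3. Leaving out 1 pancreas gave -1.57 to 3.48 for Mup3, -2.27 to 1.6 for Mup20 and -2.78 to 6.10 for Mup21, the highest each without control 45, and leaving out 1 lung -3.44 to 0.01 for Mup3, the last without control 88. Between liver and pancreas of A3B mice, given with no test, Mup15 was at 0.90 with the replicate block in place of 2.77, and with 1 mouse left out the differences ran from 2.48 to 4.11 for Mup3, 2.24 to 3.27 for Mup15, 6.16 to 7.31 for Mup20 and 7.43 to 8.35 for Mup21.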

Other observations

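Across the Ddx3y contrast of the livers of set 2, which was added after the data were seen and crosses A3B and control mice evenly, the lists of sex-biased liver genes gave opposite signs. With the status by the sum of 4 Y-linked genes edgeR called 0 genes in this contrast, 1640 having an unadjusted p under 0.05. All 14 male-biased genes had positive values in Ddx3y-positive livers (median 2.46), of which 1 was called by edgeR, and all 14 female-biased genes had negative values (median -7.89), of which 3 were called. Of the 22 other Mup genes tested 20 had a positive value (median 2.10), but 0 were called by edgeR at an adjusted p under 0.05, and 6 had an unadjusted p under 0.05. The nearest was Mup8 (5.36, SE 0.73, adjusted p = 0.0594), at 1.17 TPM in control liver 45, 35.6 TPM in control liver 168 and 0 to 1.33 TPM in A3B livers.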
